A study of Homo sapiens with 6 samples.

Results

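The transcripts described here encode 9 enzymes that make NADPH or belong to the pentose phosphate pathway: PGLS, PGD, RPIA, RPE, TKT, TALDO1, ME1, IDH1 and IDH2. They were chosen by name and role, and the fold changes of the same comparison, CCNL2 siRNA against control siRNA, were already known when the set was proposed, so their differences are given as a description and without p-values. No threshold on the values was applied. All 9 were found among 60835 gene names, each once, and all 9 passed the filter on low counts that left 15346 genes. RNA came from HEY, an established human ovarian cancer cell line grown in culture, in 2 groups of 3 libraries. The siCCNL2 libraries came from cells with an siRNA against CCNL2, the gene of cyclin L2, which works with CDK11 kinases, and the siNC libraries from cells with a control siRNA. Treatment lasted 48 h, a time the labels give identically for every library, including those of siNC. By its title the study concerns 5-methylcytosine, cisplatin resistance and ferroptosis, a form of cell death driven by oxidised lipids. One cell line was used, the number of siRNA sequences was not given in the sources used here, and neither enzyme activity nor NADPH was measured.

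NADPH is the reduced cofactor that cells spend on antioxidant reduction and on building fatty acids, cholesterol and deoxynucleotides. The oxidative branch of the pentose phosphate pathway yields NADPH and ribulose phosphate from glucose 6-phosphate, and the non-oxidative branch exchanges carbon between pentose phosphates and glycolytic sugars. Malic enzyme and the NADP-dependent isocitrate dehydrogenases are the other classical sources, one fed by malate and the others by isocitrate. In tumour cells several of these genes are known targets of NRF2, the transcription factor of the antioxidant response, and lipid peroxide removal in ferroptosis depends on NADPH through glutathione reductase.

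Library totals ran from 13596286 to 18095529 counts in siCCNL2 and from 15771604 to 16934044 in siNC. CCNL2 itself averaged 190.0 ± 11.2 CPM in siCCNL2 libraries and 258 ± 10.8 CPM in siNC libraries (mean ± SD, n = 3 each). It thus fell by 26.4%, and the groups did not overlap. Of 9 epithelial and ovarian carcinoma markers, 8 were above a TPM-like score of 1 in every library, among them PAX8 and the keratin genes KRT7, KRT8 and KRT18, while MUC16 had 0 to 7 counts. These markers were not steady: KRT7, KRT8, KRT18, PAX8 and WT1 were called lower, and the summed score of the 9 was 3897 to 4126 in siCCNL2 and 4714 to 4779 in siNC. The highest of the 9 was VIM, at 1642 to 1778, which was not called. EPCAM was low and went the other way, 4.74 to 5.86 in siCCNL2 and 2.72 to 4.32 in siNC, but was not called. WT1 scored 5.15 to 8.66 and MSLN, not called, 1.65 to 2.80. Of 10 immune, endothelial and fibroblast markers, 2 were above that level, CDH5 and PDGFRB, and CD68 and DCN had 0 counts in all libraries. The summed score of those 10 was 35.9 to 43.9 in siCCNL2 and 89.5 to 94.5 in siNC, nearly all of it CDH5. CDH5, PDGFRB and PECAM1 were called lower, and VWF was not called. CDH5 scored 32.2 to 39.6 in siCCNL2 and 83.0 to 87.7 in siNC. The part of either list in the results below was not tested. In bulk RNA, fewer cells of a kind and less RNA per cell cannot be told apart. Separate cultures for the 3 libraries of a group are not stated, so errors and p-values cover the spread among libraries alone, possibly a technical one.

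Among the 9 enzymes the clearest difference was in ME1, which was nearly doubled in siCCNL2, while the pentose phosphate and isocitrate enzymes were level or lower. In the fit across all genes 1 member was called higher, ME1, and 4 were called lower, TKT, IDH1, PGD and TALDO1. PGLS, RPIA, RPE and IDH2 were not called. A call means an adjusted p under 0.05 by edgeR's quasi-likelihood test with Benjamini-Hochberg adjustment over all 15346 genes, of which 33.6% were called, 17.2% higher and 16.5% lower. The median log2 fold change of the members was -0.09, against 0.00 for all tested genes. In TMM-scaled CPM the groups did not overlap for 5 of the 9 members, the same 5 that were called, and for 43.9% of all tested genes. Levels below are the authors' deposited TPM-like score, which divides by gene length. Comparison between genes on this score rests on the gene lengths behind it. All log2 fold changes are siCCNL2 over siNC from the fit on counts.

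**Figure D1:**
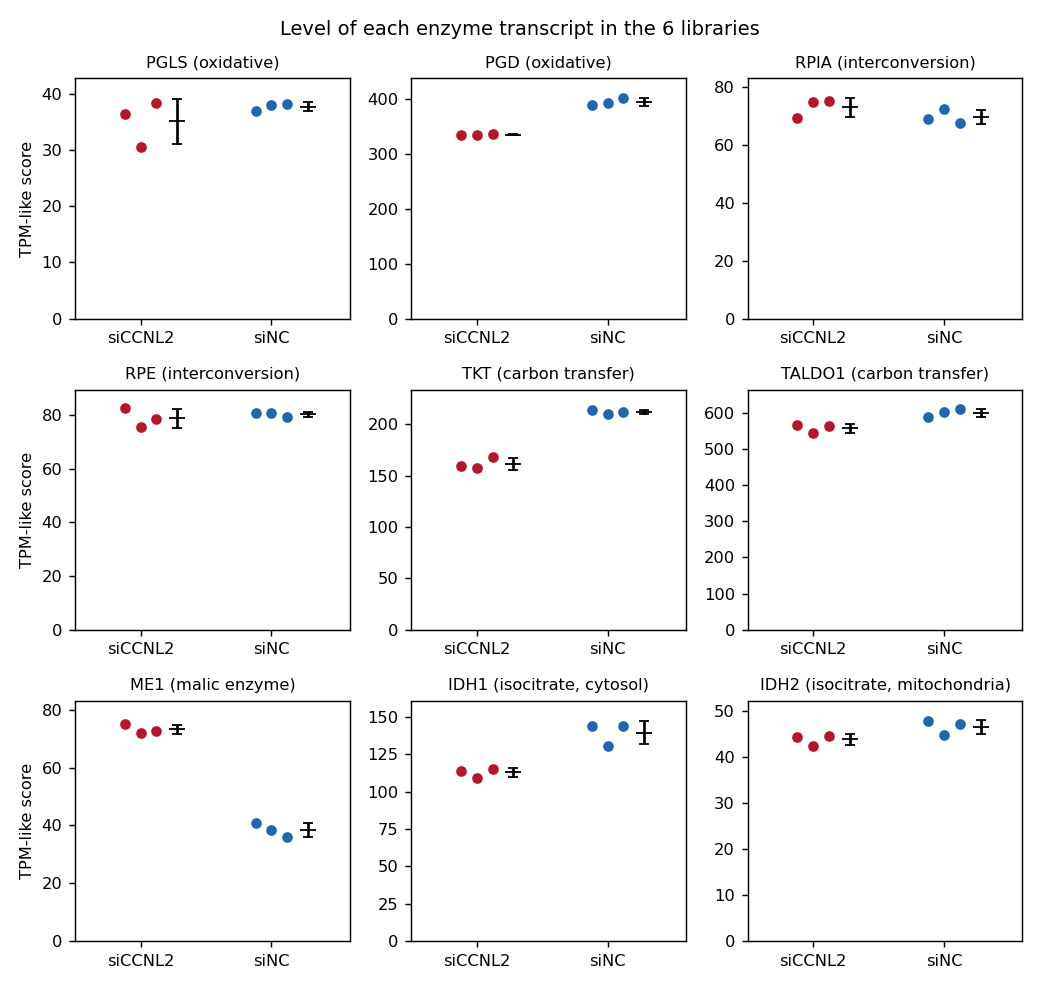
Level of each of the 9 enzyme transcripts as TPM-like score (vertical axes, from 0) in the 3 siCCNL2 libraries (red) and the 3 siNC libraries (blue), with the mean and SD beside the points. ME1 lies at 72.1 to 75.1 in siCCNL2 and 35.8 to 40.9 in siNC, and TKT at 157 to 169 in siCCNL2 and 210.0 to 214 in siNC.

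ME1 encodes the cytosolic malic enzyme, which turns malate into pyruvate and NADPH. Its score was 75.1, 72.1 and 72.7 in the siCCNL2 libraries, against 40.9, 38.5 and 35.8 in the siNC libraries. Every siCCNL2 library was far above every siNC library, and in CPM the lowest siCCNL2 library was still 1.79 times the highest siNC library. The mean was 73.3 ± 1.597 in siCCNL2 and 38.4 ± 2.52 in siNC (SD, n = 3 each), with a log2 fold change of 0.94 (SE 0.056). Of all tested genes, 96.8% had a smaller absolute log2 fold change. The rise kept its direction and its call under all 16 other settings, where the log2 fold change ran from 0.90 to 0.99. ME1 lies on the minus strand of chromosome 6 (83210402 to 83431051, GRCh38, ENSG00000065833), and the only listed gene overlapping it, AL391416.1 on the opposite strand, had 0 to 4 counts.

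The promoter windows of ME1 and TKT are shown because these are the members with the largest rise and the largest fall. Each window runs from 250 bases before to 50 bases after a RefSeq transcript start (GRCh38.p14) and is read 5′ to 3′ on the gene's strand, chr6:83431002-83431301 (minus) for ME1 and chr3:53255973-53256272 (minus) for TKT. Capitals mark matches on either strand to the core of the antioxidant response element bound by NRF2, TGACNNNGC.
ME1: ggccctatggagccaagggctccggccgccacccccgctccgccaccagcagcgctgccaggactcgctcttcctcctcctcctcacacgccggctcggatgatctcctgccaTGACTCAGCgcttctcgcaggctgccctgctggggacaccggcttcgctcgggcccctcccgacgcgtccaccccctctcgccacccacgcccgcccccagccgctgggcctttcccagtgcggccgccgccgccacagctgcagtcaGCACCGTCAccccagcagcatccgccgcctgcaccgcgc
TKT: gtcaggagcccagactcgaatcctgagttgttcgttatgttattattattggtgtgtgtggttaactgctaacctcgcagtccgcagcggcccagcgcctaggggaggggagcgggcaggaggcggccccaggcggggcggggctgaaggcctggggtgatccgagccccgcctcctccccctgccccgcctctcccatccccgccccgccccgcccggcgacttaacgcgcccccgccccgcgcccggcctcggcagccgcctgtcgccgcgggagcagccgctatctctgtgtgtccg
The ME1 window held 2 matches and the TKT window 0.

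All 9 members had at least 1 RefSeq window, IDH1 with 2, and 4 of them held the antioxidant core in a window. The first matches, read in the direction of the motif, are set out here because they show how the 3 free positions vary.
ME1: TGACTCAGC
PGD: TGACATTGC
IDH1: TGACTCCGC
RPE: TGACAGCGC
They start 137, 201, 143 and 151 bases before the transcript start in that order, with PGD's matched on the opposite strand, where the given distance is that of the end farthest from the start. The second ME1 match, TGACGGTGC, lies after the start on the opposite strand. Members with a match thus include the one that rose, 2 that fell and 1, RPE, that was not called. Counted by window, the core was present in 4 of the members' 10 windows and in 13.3% of all 35116 RefSeq windows of this length. The difference between these shares was not tested. Neither TGATGNAA, the core of the element bound by ATF4 with C/EBP proteins (3.62% of windows), nor TCACNCCAC, a sterol regulatory element (1.13%), occurred in any member's window. A match describes letters only, and these windows need not be the starts used in HEY cells. For PGD, IDH1 and IDH2 no window reached the outermost start of the gene in the deposited coordinates. The IDH2 window was chr15:90100572-90100871 (minus), while the gene's outermost start is 90102477, so matches there were not looked for.

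Of the oxidative branch, PGD encodes 6-phosphogluconate dehydrogenase, which releases NADPH together with ribulose 5-phosphate. Its score was 335, 335 and 336 in siCCNL2 libraries, against 388, 394 and 402 in siNC libraries. The groups did not overlap, and the siCCNL2 libraries were nearly equal to each other. The log2 fold change was -0.22 (SE 0.037), and the mean score fell by 15.0%. PGLS encodes the lactonase that hydrolyses the pathway's first product. It scored 36.4, 30.5 and 38.2 in siCCNL2 and 36.9, 38.0 and 38.2 in siNC. The groups overlapped, siCCNL2 replicate 2 was the lowest of the 6 libraries, and the log2 fold change was -0.09 (SE 0.090). Its size rested on single libraries, being -0.02 without siCCNL2 replicate 2 and -0.15 without siCCNL2 replicate 3. PGLS was the member with the fewest reads, down to 220 counts in that library, where counting alone gives a coefficient of variation of 6.74%, and the 3 siCCNL2 libraries varied by 9.86% in CPM. On the opposite strand, AC010618.2 shares 2236 bases with PGLS and had 1 to 9 counts, and PGLS-DT shares 254 bases, had 44 to 68 counts and was not called. Since the use of strand in counting was not given in the sources used here, a small exchange of reads was not tested.

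In the non-oxidative branch the enzymes that move carbon units fell and those that interconvert pentose phosphates were not called. TKT encodes transketolase, which transfers carbon units between sugar phosphates and links the pathway to glycolysis. It scored 160, 157 and 169 in siCCNL2 libraries, against 214, 210.0 and 212 in siNC libraries. The groups were well apart, with a log2 fold change of -0.38 (SE 0.035), and 76.3% of tested genes had a smaller absolute change. The transketolase-like genes TKTL1 and TKTL2 had 0 to 2 counts per library, so nearly all measured transketolase reads were those of TKT. TALDO1 encodes transaldolase, the partner enzyme of transketolase. It scored 566, 542 and 562 in siCCNL2, against 587, 600.3 and 610.3 in siNC. The groups did not overlap, but the lowest siNC library was only 1.04 times the highest siCCNL2 library in CPM. The log2 fold change was -0.10 (SE 0.037), near the threshold, and the call was lost under 9 of the 16 other settings, among them the omission of any 1 library.

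RPIA encodes the isomerase that makes ribose 5-phosphate, the sugar of nucleotides. It scored 69.3, 74.8 and 75.3 in siCCNL2 and 69.1, 72.6 and 67.8 in siNC, with overlapping groups and a log2 fold change of 0.08 (SE 0.063). That value was 0.13 without siCCNL2 replicate 1 and 0.05 without siCCNL2 replicate 2. RPE encodes the epimerase that makes xylulose 5-phosphate, a substrate of transketolase. It scored 82.5, 75.4 and 78.3 in siCCNL2 and 80.7, 80.7 and 79.2 in siNC, and the siCCNL2 values lay on both sides of the siNC values. Its log2 fold change of -0.02 (SE 0.047) was the closest to 0 of the set, and its sign turned to 0.0005 without siCCNL2 replicate 2. RPE shares 840 bases with KANSL1L on the opposite strand, which was not called, and has several pseudogenes, of which RPEP4, with 6 to 18 counts per library, had the most, so its reads are slightly uncertain.

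IDH1 and IDH2 encode the NADP-dependent isocitrate dehydrogenases of the cytosol with peroxisomes and of mitochondria. IDH1 scored 114, 110 and 115 in siCCNL2 libraries, against 144, 131 and 144 in siNC libraries. The groups did not overlap, siNC replicate 2 was the control nearest to the siCCNL2 libraries, and the log2 fold change was -0.29 (SE 0.049). IDH2 scored 44.5, 42.5 and 44.7 in siCCNL2 and 47.8, 44.9 and 47.2 in siNC. These groups were just apart on the score, 44.7 against 44.9, and overlapped in CPM, 38.8 in siCCNL2 replicate 3 against 38.6 in siNC replicate 2. The IDH2 log2 fold change was -0.08 (SE 0.061). The antisense transcript IDH1-AS1 overlaps IDH1 over 968 bases and had 2, 2 and 9 counts in siCCNL2 and 0, 1 and 1 in siNC, against at least 1204 counts of IDH1.

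**Figure D2:**
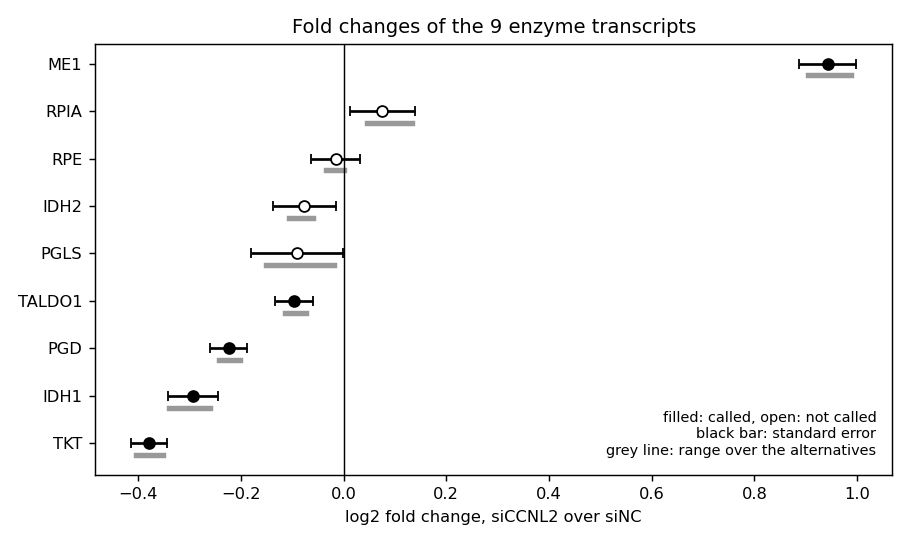
log2 fold change of each enzyme transcript, siCCNL2 over siNC (horizontal axis), from the edgeR fit on counts, with its standard error (black bars) and the range over 16 other settings (grey lines). Filled points were called and open points were not. ME1 stands alone at 0.94, TKT, IDH1, PGD and TALDO1 lie between -0.38 and -0.10, and the open points lie between -0.09 and 0.08.

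By level per length, TALDO1 was the most abundant of the 9 in every library, followed by PGD, TKT and IDH1. This order held in both groups, and no 2 of these neighbours overlapped. TALDO1 was above 98.6% and PGD above 97.5% of tested genes in mean score. RPE, RPIA, IDH2, ME1 and PGLS followed, between 30.5 and 82.5. In siNC, ME1 and PGLS were the lowest and their values overlapped (38.4 ± 2.52 and 37.7 ± 0.735, SD, n = 3 each), below IDH2 at 46.6 ± 1.56. In siCCNL2, ME1 stood beside RPIA (73.3 ± 1.597 and 73.2 ± 3.31), and which of them was higher differed between the 3 libraries, both above IDH2 at 43.9 ± 1.20. PGLS was the lowest of the 9 in siCCNL2, at 35.1 ± 4.04. The order on the score rests on the gene lengths behind it. With ME1 set to 1, those lengths were 2.18 for TKT and 0.369 for TALDO1. In CPM, not divided by length, TKT was the highest of the 9, at 386 in siCCNL2 and 502 in siNC. PGD averaged 249 CPM in siCCNL2 and 291 CPM in siNC, and TALDO1 224 CPM in siCCNL2 and 240 CPM in siNC.

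The proportions between the enzymes shifted accordingly. ME1 made up 5.07%, 5.01% and 4.88% of the summed score of the 9 in siCCNL2 libraries and 2.54%, 2.39% and 2.19% in siNC libraries. ME1 stood at 0.649 ± 0.016 of the IDH1 score in siCCNL2 and at 0.276 ± 0.024 in siNC. IDH1 was 2.57 ± 0.009 times IDH2 in siCCNL2 and 2.99 ± 0.073 times in siNC. TALDO1 was 3.44 ± 0.107 times TKT in siCCNL2 and 2.83 ± 0.071 times in siNC (SD, n = 3 libraries for each of these). None of these 4 proportions overlapped between the groups, but they are built from the member scores given above and are no separate result. PGLS and PGD together were 0.426 ± 0.004 of the 4 non-oxidative enzymes in siCCNL2 and 0.450 ± 0.004 in siNC. This proportion fell by 5.34%, and it did not overlap between the groups either. PGLS and PGD are the oxidative members of this set and not the whole oxidative branch, so the proportion does not describe that branch as a whole. The gain in ME1 was smaller than the loss over the others: the 9 together summed to 1471 ± 27.2 in siCCNL2 and 1618 ± 15.9 in siNC, and so fell by 9.08%. The levels of these proportions and sums also rest on the gene lengths behind the score.

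**Figure D3:**
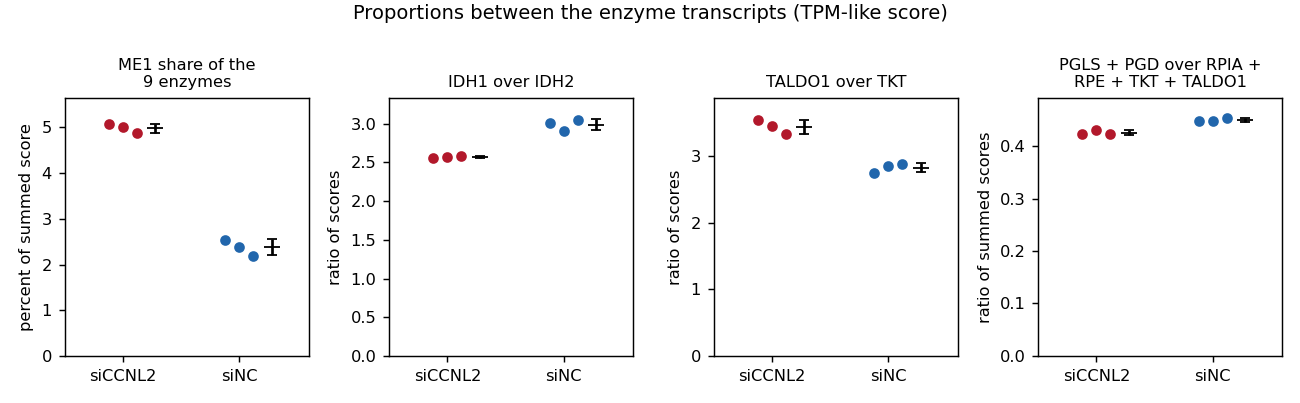
Proportions between enzyme transcripts on the TPM-like score (vertical axes, from 0) in the 3 siCCNL2 libraries (red) and the 3 siNC libraries (blue), with mean and SD beside the points. The ME1 share of the 9 lies near 5% in siCCNL2 and between 2.19% and 2.54% in siNC, IDH1 over IDH2 is lower in siCCNL2, and TALDO1 over TKT is higher in siCCNL2.

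The deposited annotation places 6 of the 9 members in the KEGG pentose phosphate pathway and 3, PGD, IDH1 and IDH2, in glutathione metabolism. The lists of further genes below were also chosen with earlier results of these data known. Most genes named from them were picked for the size of their change. Their adjusted p-values are thus a description as well, and no separate support. Of 14 further pentose and pentose phosphate genes, 11 were tested, of which 1 rose, 5 fell and 5 were not called, with a median log2 fold change of -0.15. H6PD, which makes NADPH in the lumen of the endoplasmic reticulum, fell to 51.2 ± 2.25 CPM in siCCNL2, against 69.9 ± 6.05 CPM in siNC (log2 fold change -0.45, SE 0.062, adjusted p = 3.54e-06 by edgeR). PRPS1, which makes the activated ribose used for nucleotides, averaged 92.0 ± 0.229 CPM in siCCNL2 and 105 ± 6.68 CPM in siNC (log2 fold change -0.19, adjusted p = 0.00363 by edgeR). PRPSAP1, a protein associated with the PRPS enzymes, rose by 0.24 (adjusted p = 0.00552 by edgeR). Omitting siCCNL2 replicate 2 ended that call (log2 fold change 0.17, adjusted p = 0.0502 by edgeR). PRPSAP1 overlaps SPHK1 over 7938 bases of the opposite strand, so its reads are uncertain.

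Other genes that make NADPH or supply NADP+ went both ways: of 10 tested among 11, 4 rose, 3 fell and 3 were not called (median log2 fold change 0.05). NNT, the mitochondrial transhydrogenase, averaged 72.5 ± 4.14 CPM in siCCNL2 and 55.5 ± 4.61 CPM in siNC (log2 fold change 0.39, adjusted p = 2.06e-05 by edgeR), and its antisense gene NNT-AS1, sharing 539 bases, was also called higher. MTHFD2, a mitochondrial folate dehydrogenase, rose by 0.36 (adjusted p = 3.3e-06 by edgeR). ALDH1L2, which oxidises formyl folate in mitochondria, rose by 0.58 but averaged 6.35 ± 1.24 CPM in siCCNL2 and 4.29 ± 0.608 CPM in siNC, lost its call under 4 of 16 settings, among them the omission of siCCNL2 replicate 1 or siNC replicate 1, and overlaps 2 more abundant genes on the opposite strand. ME3, the mitochondrial NADP-dependent malic enzyme, fell to 62.8 ± 1.09 CPM in siCCNL2, against 76.5 ± 4.90 CPM in siNC (log2 fold change -0.29, SE 0.054, adjusted p = 1.97e-04 by edgeR), the opposite direction to ME1. ME2, the mitochondrial enzyme that mainly uses NAD, was not called (-0.02, SE 0.059). NADK2, which phosphorylates NAD in mitochondria, fell by 0.27 and GLUD1, glutamate dehydrogenase, by 0.11 (adjusted p = 0.0174 and 0.0443 by edgeR), calls lost under 6 and 9 of the 16 settings. For NADK2 these include the omission of siCCNL2 replicate 1 or 3 or of siNC replicate 1 or 2, and for GLUD1 that of any library but siNC replicate 1. Without siNC replicate 3 the GLUD1 log2 fold change shrank to -0.06. NADK2 shares bases with SKP2 and GLUD1 with SHLD2, each on the opposite strand, SHLD2 being called higher.

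Upstream of the pathway, among 11 tested genes of glucose 6-phosphate entry and upper glycolysis, 3 rose, 1 fell and 7 were not called (median 0.06). PFKL, the liver-type phosphofructokinase, rose to 78.8 ± 0.734 CPM in siCCNL2, against 53.5 ± 1.42 CPM in siNC (log2 fold change 0.56, adjusted p = 5.37e-09 by edgeR). HK2, a hexokinase, rose by 0.27 and G6PC3, a glucose 6-phosphatase, by 0.21 (adjusted p = 3.43e-04 and 0.00535 by edgeR), while PFKP, the platelet-type phosphofructokinase, fell by 0.12 (adjusted p = 0.0196 by edgeR) and lost its call under 6 of 16 settings, among them the omission of siCCNL2 replicate 1 or 2 or siNC replicate 2 or 3. G6PC3 shares 5406 bases with HDAC5 on the opposite strand, which was not called, so the reads of G6PC3 are uncertain. GPI, the isomerase at the branch point, was not called (0.06, SE 0.037).

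Around the substrates of IDH1, IDH2 and ME1, among 14 tested citrate, isocitrate and malate genes, 4 rose, 4 fell and 6 were not called (median 0.03). CS, citrate synthase, which opens the citrate cycle, averaged 318 ± 8.37 CPM in siCCNL2 and 235 ± 6.79 CPM in siNC (log2 fold change 0.44, adjusted p = 1.67e-09 by edgeR). PC, pyruvate carboxylase, rose by 0.24 (adjusted p = 0.0235 by edgeR), lost its call under 7 of 16 settings, 3 of them the omission of siCCNL2 replicate 1, siNC replicate 2 or siNC replicate 3, and overlaps the more abundant LRFN4 on the opposite strand. IDH3B, a subunit of the NAD-dependent isocitrate dehydrogenase, fell by 0.28, SLC25A11, the mitochondrial carrier of oxoglutarate and malate, by 0.22, and ACLY, which splits citrate in the cytosol, by 0.20 (adjusted p = 1.17e-04, 0.00522 and 4.69e-05 by edgeR).

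Among 14 tested genes of reductases that spend NADPH, 1 rose, 6 fell and 7 were not called (median -0.10). The log2 values of TXNRD1, cytosolic thioredoxin reductase, fell by 0.51 and those of TXNRD2, mitochondrial thioredoxin reductase, by 0.41 (edgeR, adjusted p = 3.44e-12 and 3.65e-06). BLVRB, biliverdin reductase B, rose to 26.5 ± 2.95 CPM in siCCNL2, against 16.7 ± 1.35 CPM in siNC (log2 fold change 0.66, adjusted p = 4.81e-06 by edgeR). Since the use of strand in counting is not known, TXNRD2 reads are uncertain. Over the 5 lists together 13 of 60 tested genes rose and 19 fell, with a median log2 fold change of -0.02. None of the 60 reached the absolute log2 fold change of ME1.

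**Figure D4:**
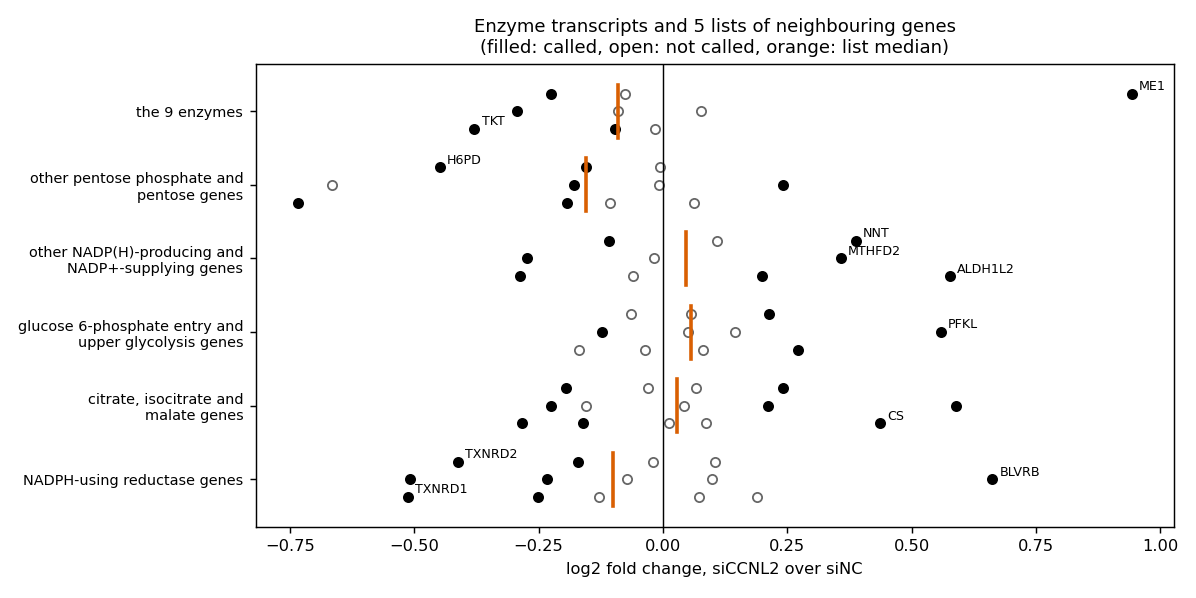
log2 fold change, siCCNL2 over siNC (horizontal axis), of the 9 enzyme transcripts and of the tested genes in 5 lists of neighbouring metabolism (rows). Each point is a gene, filled where called and open where not, the orange bar is the median of the row, and some of the genes beyond 0.35 in either direction are named. Medians lie between -0.15 and 0.06, and ME1 at 0.94 is the farthest point from 0.

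The genes whose profile over the 6 libraries was most like that of ME1 in log2 CPM, among 10630 other genes averaging at least 5 CPM, included PTPN11 and DLG1 (Pearson r of 0.999 each), and 973 genes had an r above 0.95. Those most like TKT were ATP6V1A, SP6 and VCL (r of 0.999, 0.999 and 0.998), and 760 genes had an r above 0.95. The 6 libraries form 2 groups, so r mostly follows the difference between the groups, and these values are a description.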

How the data were processed

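For 6 HEY libraries the authors deposited raw counts of reads per gene. A second table, deposited by the authors, holds a TPM-like score, whose columns sum to 1000000 over distinct names. Build GRCh38 and the tools HTSeq 2.0.1, HISAT2 and fastp 0.23.0 are listed, without role or order, per the submitters' processing notes. The sources used here do not give annotation release, library kit or strand setting. Of 62710 rows, each of 60835 names was used once, and the 2 tables matched within 1.44e-09 over 9661 genes.

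Groups were taken from the sample titles. Genes kept by filterByExpr were tested with edgeR 4.0.16 in R 4.3.3 (TMM factors, glmQLFit, glmQLFTest, no covariates, Benjamini-Hochberg adjustment over 15346 genes, called under 0.05). The standard error is the log2 fold change over the square root of F. The script was tested on simulated data. An exact two-sided permutation test of 3 against 3 libraries cannot go below p = 0.1 and was not used. Chi-square over degrees of freedom between libraries of a group was 2.19 to 3.61, more than counting noise gives, so none was merged as a library deposited again. This does not show separate cultures. Alternatives were other normalizations and filters, DESeq2 1.42.0, limma 3.58.1 on voom values or on log2 of the score plus 1 or 0.1, a threshold of 0.01, a replicate block and the omission of each library.

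The members and lists were chosen with earlier results of these data known. Named genes are all members, CCNL2, up to 3 called genes per list and direction with the largest change, and the 3 genes most like the members with the largest rise and fall. Some genes that this rule names are not reported here, and the list counts include them. GPI and ME2 were added after their values were seen. Promoter windows are from RefSeq (GRCh38.p14).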

Additional observations from a re-analysis of the deposited data

How the results depend on the processing

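Under the other settings ME1, TKT, IDH1 and PGD kept direction and call, and PGLS, RPIA, RPE and IDH2 stayed uncalled, RPE with a log2 fold change of -0.0319 to 0.0005 without 1 library, its sign turned without siCCNL2 replicate 2 (the cause was not tested). TALDO1 kept its sign and lost its call without a count filter, with the replicate block, by the DESeq2 Wald test and without any 1 library. An adjusted p under 0.01 in place of 0.05 also ended its call, leaving 1 member higher and 3 lower, 11 and 13 genes of the other lists, and 1869 and 1743 of all tested genes. Over the 16 settings with a fit of their own the TALDO1 log2 fold change ran from -0.11 to -0.07. Without 1 library, 1 member was called higher and 3 lower each time, 12 to 13 and 14 to 17 genes of the other lists, and 2147 to 2492 and 2032 to 2276 of all tested genes. The ratio of siCCNL2 to siNC then ran from 0.850 to 0.870 for IDH1 over IDH2, from 0.941 to 0.951 for the oxidative over the non-oxidative proportion and from 2.02 to 2.18 for the ME1 share. Other scalings moved the median over all genes by at most 0.018 on the log2 scale. Same-numbered libraries did not deviate together beyond r = 0.0432, so the numbers were not taken as pairs, although each library correlated best with its own number. With the replicate block 2673 genes were called higher and 2561 lower, with 1 and 3 of the members and 13 and 20 of the other lists. Depth limits PGLS most.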
